A study of Mus musculus with 23 samples.

Results

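The genes that encode the DNA replication machinery were measured in the colonic epithelium of male C57BL/6 mice (C57BL/6J in the study's methods), as 49 of the 24917 genes counted by RNA sequencing after removal of ribosomal RNA. The members were listed by what their proteins do in replication, at a time when earlier results of these data were known, and all of them were found by symbol. The mice entered the study at 6 weeks of age and were fed for 43 weeks. LF mice received a lard-based diet with 10% fat, HF mice one with 60% fat, and HF-LF mice the 60% fat diet for 15 weeks and then the 10% fat diet for 28 weeks. Batch 1 held 4 LF, 3 HF and 4 HF-LF samples, and batch 2 held 4 LF, 3 HF and 5 HF-LF samples. All groups shared the strain, the sex, the length of feeding and the release of the epithelium of the whole colon with EDTA. The study's methods describe fewer mice per regimen than the batches hold together, so some of the 23 samples may come from the same mouse, fits over both batches may count a mouse more than once, and p-values measure the spread between these samples.

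Replication starts at origins that the origin recognition complex binds. Cdc6 and Cdt1 then load the ring of minichromosome maintenance (MCM) proteins, and the kinase Cdc7 with its activator Dbf4 turns that ring, together with Cdc45 and the GINS subunits, into the active helicase. Primase and the polymerases copy the opened strands, the clamp Pcna is set on DNA by the replication factor C loader, RPA coats single strands, and Fen1 and the ligase Lig1 join the pieces of the lagging strand. In the colon, cells divide in the lower part of the crypt and stop dividing as they move to the surface, and most replication genes are transcribed shortly before and during S phase under E2F factors.

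The promoters of the members were searched for letters typical of E2F sites, because this is the control they are known to share. RefSeq promoters on GRCm38.p6, from 250 bases before to 50 after a start, were matched for 41 of the 49 genes, and Prim2, Rfc2, Gins1, Gins2, Gins4, Mcm4, Pole and Gmnn were not matched. One of the 4 strings TTTGGCGC, TTTCGCGC, TTTCCCGC and TTTGCCGC, on either strand and overlaps allowed, stood in the promoter of 15 of the 41 genes (36.6%), against 2.6% of the 27025 genes in the promoter table. The CCAAT box was in 58.5% of the member genes and in 41.1% of all genes, and the CHR string TTTGAA in 17.1% and 20.2%. The genes with E2F letters were Orc1, Orc3, Cdc6, Cdt1, Mcm3, Mcm5, Mcm6, Mcm7, Gins3, Pola1, Pold1, Pold3, Pole2, Rfc3 and Lig1. Matches in 7 promoters are shown because these genes cover licensing, the helicase, a polymerase and the clamp loader, with the E2F letters of either strand in capitals, read 5′ to 3′ on the strand of the gene:
Orc1: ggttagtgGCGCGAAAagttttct
Cdc6: ggtggagaGCGGGAAAtcgcctgg
Mcm5: ccaagaacTTTCGCGCCAAAacgtccag
Mcm6: cgtatgctTTTGGCGCGAAAagtgcgtg
Mcm7: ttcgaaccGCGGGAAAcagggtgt
Pole2: cggcggtgGCGCCAAAtcgcgaac
Rfc3: tcgcacgcTTTCGCGCtcgcggga
These windows lie at chr4:108579419-108579442 (plus strand, Orc1), chr11:98908005-98908028 (plus, Cdc6), chr8:75109348-75109375 (plus, Mcm5), chr1:128359796-128359823 (minus, Mcm6), chr5:138172033-138172056 (minus, Mcm7), chr12:69228165-69228188 (minus, Pole2) and chr5:151651203-151651226 (minus, Rfc3). The letters shown sit before the start in Orc1, Cdc6, Mcm5, Mcm6, Mcm7 and Rfc3 and after it in Pole2. In Mcm5 and Mcm6 a match on each strand overlaps the other. A match of letters is a description of the window and does not show binding.

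Each sample held between 29189922 and 46498521 counted reads in batch 1 and between 31607019 and 65320947 in batch 2. Every member passed the filter on low counts in every fit, and the smallest count of any member in any sample was 31 reads. Levels are given as CPM, a gene's reads relative to the library's total, scaled within each batch, and changes as log2 fold changes with their standard errors. A gene was called at an adjusted p under 0.05 together with a fold change above 1.2. Between HF and LF samples 0 of 14428 genes were called in batch 1. In batch 2, 436 of 14377 were called higher and 633 lower, and over both batches 1294 of 14385 were called higher and 1311 lower. The epithelial marker Epcam stood between 1496 and 2193 CPM in all samples, whereas the collagen gene Col1a1 stood between 0.203 and 8.71 CPM and the 5 B cell and germinal centre markers summed to at most 1.45 CPM. In such bulk samples, fewer cells of a type and less RNA per cell cannot be told apart.

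Levels per kilobase used the longest annotated coding transcript, which can differ from the gene model that was counted. By this measure Pcna was the highest of the 49 members in LF samples of both batches, with 42.6 CPM per kb in batch 1 and 50.2 in batch 2. Orc3, an origin recognition subunit, was next in batch 1 with 18 CPM per kb (16.9 in batch 2), and Rpa3, the smallest RPA subunit, was next in batch 2 with 21.8 (17.4 in batch 1). The lowest values were those of some genes of helicase assembly, among them Ticrr, which helps to fire origins, at 0.832 and 1.24 CPM per kb. The GINS subunit Gins2 was at 0.864 and 1.48. Other genes of that group were higher, such as Gins4 at 9.32 and 11.9 CPM per kb. Among the MCM proteins, Mcm2 to Mcm7 lay between 6.66 and 10.6 CPM per kb in batch 1, and Mcm10, which is not part of the ring, at 2.39.

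Replication genes were higher in HF than in LF samples of batch 1, with a positive change in nearly all of them and none past the adjusted test. The median log2 fold change of the 49 members was 0.40, against -0.00 over all genes, and 48 members were above 0, as were 49.5% of all genes. Gins2 stood highest at 0.87 ± 0.28 and Pold1, the catalytic subunit of polymerase delta, lowest at -0.04 ± 0.21. With 3 HF and 4 LF samples, edgeR's quasi-likelihood test called 0 members, and 0% of all genes, and the smallest adjusted p among the members was 0.139. At an unadjusted p under 0.05, 28 members (57.1%) were higher in HF, against 12% of all genes, and 0 were lower. The groups did not overlap for 19 members, all higher in HF (38.8%, against 6.29% of all genes): Mcm2, Mcm6, Mcm7, Cdc45, Gins1, Gins2, Cdc7, Dbf4, Pola1, Prim1, Prim2, Pold2, Rfc3, Rfc4, Rfc5, Rpa1, Rpa2, Fen1 and Chaf1b. DESeq2 called 9 members in the same samples and limma's voom with sample weights 16, and without HF replicate 2 edgeR called 16. For these and the later alternatives the share of all genes called is not given. Their counts therefore do not set the members apart from all genes.

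One HF library stood apart. HF replicate 3 of batch 1 had the highest CPM of the 11 samples for 40 of the 49 members, and the 49 members summed to 1459 CPM there, against 1122 and 1040 in the other HF samples and 848 to 1017 in the LF samples. What share of all genes was highest in this library is not given. The same library had the lowest summed level of 9 stromal and vascular markers, 3.74 CPM against 18 to 91.1 in the other 10 samples of the batch, and the lowest sum of 4 goblet cell markers, 16272 CPM against 22100 to 31351. Its sums of 5 crypt stem cell markers, 109 CPM against 124 to 161, and of 4 macrophage markers, 5.59 CPM against 6.74 to 13, were the lowest as well. Not all lists were low in it. Its sums of surface colonocyte markers, 3558 CPM against 2567 to 3747, and of T cell and leukocyte markers, 22.9 CPM against 10.7 to 25.5, lay within the range of the others. Its sum of G2/M genes, 815 CPM against 290 to 711, was the highest. Whether these levels bear on the members was not tested. Without this library the median of the members in batch 1 was 0.29, 49 of 49 members were above 0, and 9 were past an unadjusted p of 0.05. Shares of all genes without this library are not given, so the count of 9 does not set the members apart from all genes.

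**Figure D1:**
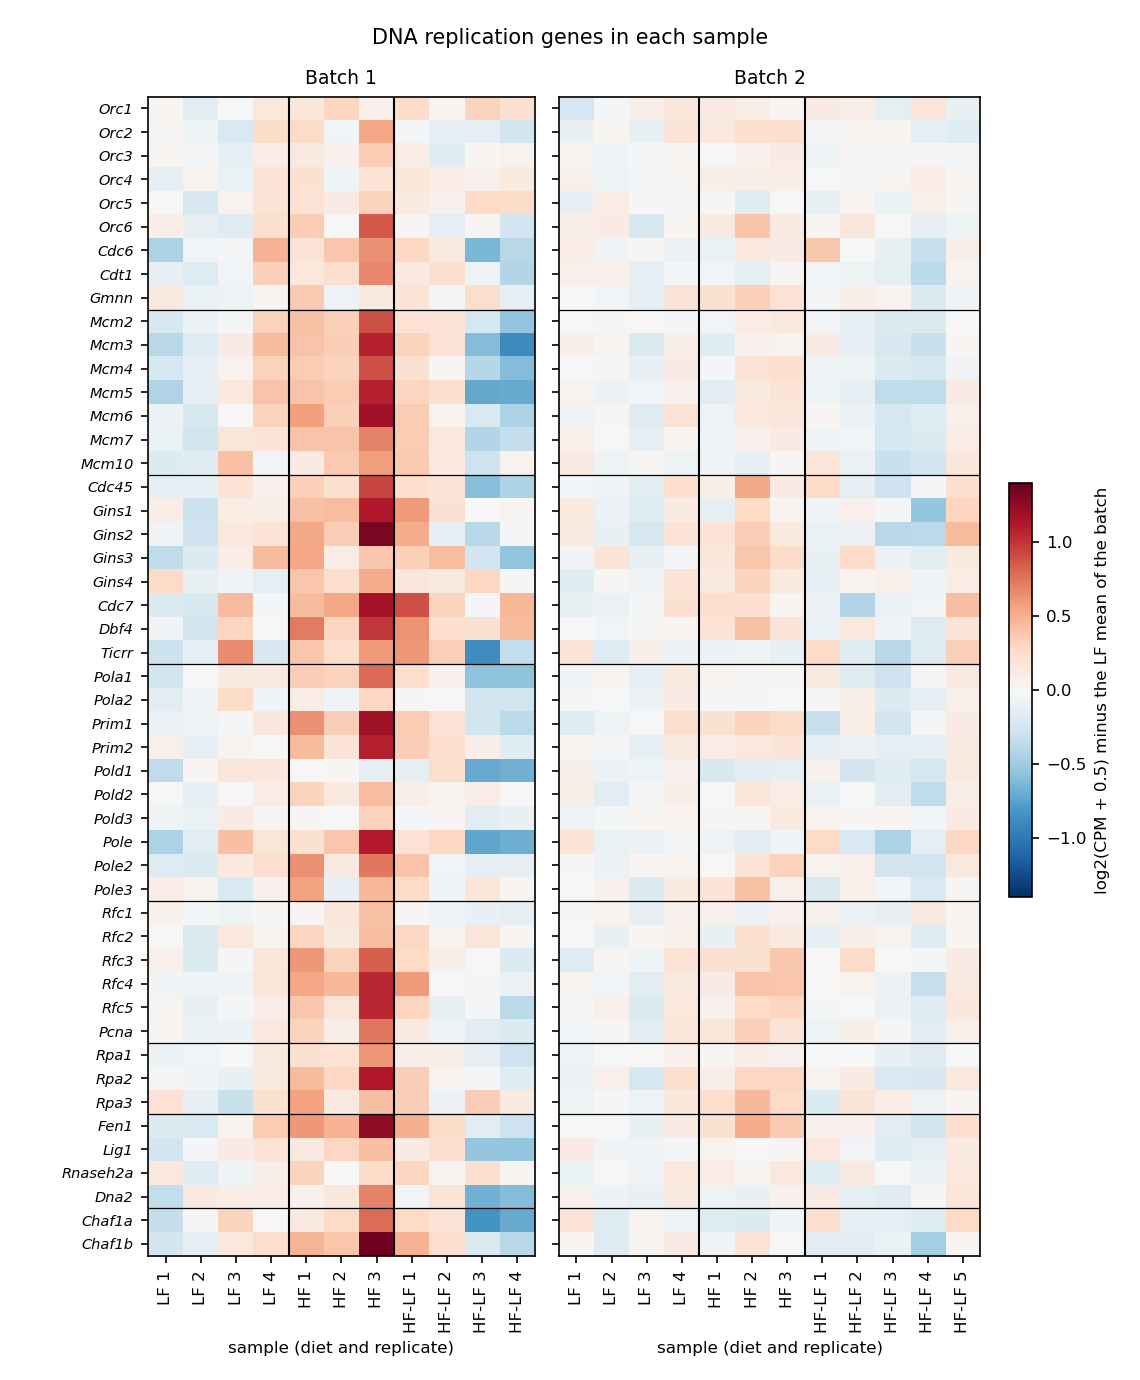
Heat map of the 49 members (rows, ordered by role, lines between the roles) in the 23 samples (columns, by diet and replicate), coloured by log2(CPM + 0.5) minus the mean of the LF samples of the same batch. In batch 1 the column of HF replicate 3 is the deepest red (above the LF mean), with the highest value for 40 members, and HF-LF replicates 3 and 4 hold most of the blue (below it), whereas the colours of batch 2 are paler.

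In batch 2 the same comparison gave smaller values. The median log2 fold change of the members was 0.09, 39 members were above 0, against 48% of all genes, and 10 below, and the range ran from -0.18 ± 0.09 for Pold1 to 0.38 ± 0.11 for Fen1. Fen1 and Rpa3 were called higher, 2 of 49 (4.08%), against 3.03% of all genes, so the share of members called was near that of all genes. At an unadjusted p under 0.05, 12 members (24.5%) were higher, against 16% of all genes. The groups did not overlap for 8 members higher in HF (Orc4, Orc6, Gmnn, Dbf4, Rfc3, Pcna, Rpa3 and Fen1; 16.3%, against 13.8% of all genes) and for Pold1, which was lower in HF (2.04%, against 13.5%). The calls of Fen1 and Rpa3 were both lost without LF replicate 1, 2 or 3 or without HF replicate 2 or 3, and 9 members were called without LF replicate 4. The call of Rpa3 alone was lost without HF replicate 1 or without HF-LF replicate 3, 4 or 5.

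With both batches in one fit and batch as a term, 21 members rose in HF (42.9%, against 9% of all genes) and 0 fell, against 9.11% of all genes. Their median over all 49 was 0.29, 48 were above 0, against 48.7% of all genes, and Fen1 was highest at 0.60 ± 0.13. The called members were Orc6, Mcm2, Mcm4, Mcm6, Cdc45, Gins2, Gins4, Cdc7, Dbf4, Prim1, Prim2, Pole2, Pole3, Rfc3, Rfc4, Rfc5, Pcna, Rpa2, Rpa3, Fen1 and Chaf1b. Without HF replicate 3 of batch 1, 8 of them were called (Gins4, Dbf4, Prim1, Rfc3, Rfc4, Rpa2, Rpa3 and Fen1), and without LF replicate 2 of batch 1, 13. Dbf4, Rfc3, Rpa2 and Fen1 were called under every alternative that was run.

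Of the 9 genes of origin recognition and licensing, all had a log2 fold change above 0 over both batches, between 0.08 and 0.34, and 1 was called. In that fit 9% of all genes were called higher, so 1 of 9 was near the share of all genes. The same 9% stands beside the counts called over both batches in the other roles below. Orc6, the smallest subunit of the origin recognition complex, stood at 11.1, 9.49, 9.08 and 12.2 CPM in LF and at 13.4, 10.4 and 19.2 CPM in HF samples of batch 1. In batch 2 it stood at 11.1, 11.4, 8.86 and 10.7 CPM in LF and 11.5, 14 and 11.5 CPM in HF samples. The groups overlapped in batch 1 and did not in batch 2, and the change over both batches was 0.34 ± 0.11 (adjusted p = 0.0243). Orc2, another subunit of that complex, passed the adjusted p but not the fold, at 0.24 ± 0.08 (adjusted p = 0.0333). Gmnn, which encodes geminin, the inhibitor of Cdt1, was at 0.16 ± 0.13 in batch 1 and 0.25 ± 0.09 in batch 2. Orc1, Orc3, Orc4, Orc5, Cdc6 and Cdt1 were not called in any fit.

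The 7 MCM genes were all above 0 over both batches and 3 were called, with a median of 0.56 in batch 1 and 0.06 in batch 2. Mcm6, a ring subunit, stood at 41.5, 37.6, 43.8 and 54.7 CPM in LF and at 65.6, 55.7 and 101 CPM in HF samples of batch 1. The lowest HF sample was just above the highest LF sample, and HF replicate 3 was far above both. In batch 2 its LF samples stood at 62.5, 65.3, 56.9 and 74.5 CPM and its HF samples at 61.6, 71.4 and 72.2 CPM, so the groups overlapped. The log2 fold change of Mcm6 was 0.74 ± 0.21 in batch 1 and 0.08 ± 0.09 in batch 2, and 0.42 ± 0.14 over both (adjusted p = 0.0288). Mcm4 was at 0.35 ± 0.12 (adjusted p = 0.0359) and Mcm2 at 0.33 ± 0.12 (adjusted p = 0.0382) over both batches, both ring subunits. All of these 3 calls were lost without HF replicate 3 of batch 1.

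The 8 genes of helicase assembly and origin firing had a median of 0.64 in batch 1 and 0.22 in batch 2, and 5 of them rose over both batches. Dbf4, the activator of the Cdc7 kinase, stood at 11.5, 9.86, 14.8 and 12 CPM in LF and at 20, 14.8 and 24.1 CPM in HF samples of batch 1. In batch 2 its LF samples lay within 17.1 to 17.8 CPM, and its HF samples stood at 20.1, 23.4 and 20 CPM. The groups did not overlap in either batch, though HF replicate 2 and LF replicate 3 of batch 1 were nearly level. Its log2 fold change was 0.71 ± 0.18 in batch 1, 0.27 ± 0.09 in batch 2 and 0.48 ± 0.11 over both (adjusted p = 0.00612). Gins4 rose by 0.29 ± 0.08 (adjusted p = 0.00989) and Gins2 by 0.55 ± 0.18 (adjusted p = 0.0276), both subunits of the GINS ring. Cdc45 and Cdc7 rose as well, and Gins1, Gins3 and Ticrr were not called.

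Of the 10 polymerase and primase genes, 4 rose over both batches, namely Prim1, Prim2, Pole2 and Pole3. The polymerase delta gene Pold2 passed the adjusted p but not the fold, at 0.20 ± 0.07 (adjusted p = 0.0366), and Pold1, Pold3, Pole, Pola1 and Pola2 passed neither test. Prim1, the catalytic primase subunit, stood at 7.38, 7.53, 7.73 and 8.82 CPM in LF and at 12.5, 10.1 and 18.5 CPM in HF samples of batch 1. In batch 2 it stood at 9.33, 10.1, 10.7 and 12.6 CPM in LF and 12.4, 13.3 and 12.8 CPM in HF samples. The HF samples were all above the LF samples in batch 1, and in batch 2 only LF replicate 4 reached into their range. The change of Prim1 was 0.54 ± 0.14 over both batches (adjusted p = 0.00906), that of Prim2, the other primase subunit, 0.40 ± 0.12 (adjusted p = 0.017) and that of Pole2, a polymerase epsilon subunit, 0.38 ± 0.12 (adjusted p = 0.0277). Pole3, another epsilon subunit, rose too. Pold1, singled out after its values were seen, stood at 37.6, 33.3, 34 and 36.8 CPM in LF and at 30.1, 31.6 and 32.1 CPM in HF samples of batch 2, and was the one member below 0 over both batches, at -0.11 ± 0.12 (adjusted p = 0.496).

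Pcna and 3 of the 5 loader subunits rose over both batches, Rfc1 and Rfc2 not being called. Rfc3 stood at 10.9, 8.9, 10.1 and 11.6 CPM in LF and 16, 12.9 and 18.8 CPM in HF samples of batch 1. In batch 2 it stood at 12.6, 14.8, 13.7 and 16.6 CPM in LF and 16.9, 16.7 and 18.8 CPM in HF samples. The groups did not overlap in either batch, by a small margin in batch 2, and the change over both was 0.45 ± 0.10, with the smallest adjusted p of the members (0.00528). Rfc4 rose by 0.53 ± 0.12 (adjusted p = 0.00612). Pcna, the clamp itself, rose by 0.32 ± 0.08 (adjusted p = 0.00966), from 66, 60.6, 60.8 and 71.3 CPM in LF to 80.5, 68.6 and 108 CPM in HF samples of batch 1, and from 74.2, 77.1, 68 and 85.5 CPM to 85.7, 96 and 86.1 CPM in batch 2. HF replicate 2 of batch 1 lay within the LF range, and in batch 2 the groups were apart by less than 1 CPM.

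All 3 RPA genes had a positive change in each batch. Rpa2 rose by 0.46 ± 0.12 (adjusted p = 0.0121) over both batches, from 8.1, 7.73, 7.43 and 8.9 CPM in LF to 11.1, 9.9 and 18 CPM in HF samples of batch 1, and it overlapped in batch 2. Rpa3 rose by 0.36 ± 0.10 (adjusted p = 0.0121) over both batches and by 0.33 ± 0.10 (adjusted p = 0.049) in batch 2 alone, where it stood at 13.9, 14.3, 13.9 and 16.4 CPM in LF and at 17.2, 20.1 and 17.8 CPM in HF samples. Rpa3 had the shortest transcript of the members, and with trends of transcript GC content and length taken out its change over both batches was -0.04. Rpa1 passed the adjusted p but not the fold, at 0.21 ± 0.07 (adjusted p = 0.0335).

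Of the 4 genes that process lagging-strand fragments only Fen1, the flap endonuclease, was called, and the other three, Lig1, Rnaseh2a and Dna2, lay between 0.15 and 0.16 over both batches. Fen1 stood at 10.1, 10, 12.1 and 15 CPM in LF and at 18, 16.5 and 28.2 CPM in HF samples of batch 1. In batch 2 it stood at 18.1, 18.1, 16.9 and 19.7 CPM in LF and at 21.2, 26.2 and 23.5 CPM in HF samples. All HF samples were above all LF samples within each batch. The fold change was 0.82 ± 0.23 in batch 1 (adjusted p = 0.159), 0.38 ± 0.11 in batch 2 (adjusted p = 0.0457) and 0.60 ± 0.13 over both (adjusted p = 0.00581) on the log2 scale. Of the chromatin assembly factor genes, which place histones behind the fork, Chaf1b rose by 0.45 ± 0.17 over both batches (adjusted p = 0.0465) and Chaf1a was at 0.16 ± 0.17. Chaf1b stood at 5.16, 5.64, 7.02 and 7.56 CPM in LF and 8.93, 8.38 and 16.9 CPM in HF samples of batch 1, and in batch 2 its change was 0.04 ± 0.11.

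**Figure D2:**
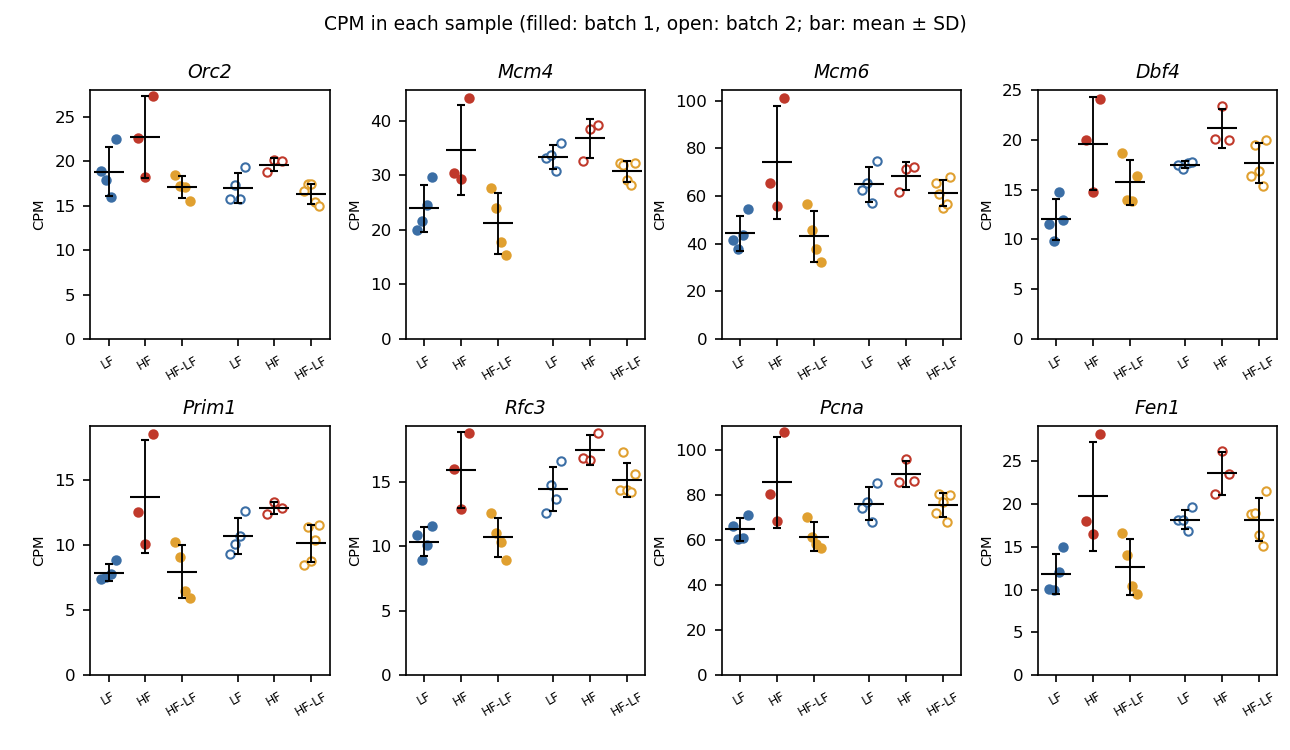
CPM of 8 members in every sample, by diet (LF blue, HF red, HF-LF yellow; filled points batch 1, open points batch 2), with the mean and the SD of each group as bars, on axes that start at 0. Fen1 lies at 16.5 to 28.2 CPM in HF against 10 to 15 CPM in LF samples of batch 1 and at 21.2 to 26.2 against 16.9 to 19.7 CPM in batch 2, and Orc2, Mcm4 and Pcna overlap between HF and LF in batch 1.

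The difference between the batches was tested member by member as an interaction of batch and diet. The log2 fold change of HF against LF was larger in batch 1 for 48 of 49 members, Gmnn being the exception, and the median difference, batch 2 minus batch 1, was -0.37. How many of all genes had a larger change in batch 1 is not given. The batch 1 changes all include HF replicate 3, without which their median was 0.29, against 0.40 with it. In edgeR's test of the interaction 0 members passed an adjusted p of 0.05, as did 0 of all 14385 genes, and the smallest adjusted p of a member was 0.703. At an unadjusted p under 0.05, 10 members (Mcm2, Mcm6, Mcm7, Gins1, Dbf4, Pola1, Prim1, Prim2, Rpa1 and Chaf1b) had a lower change in batch 2, against 4.1% of all genes, and DESeq2 passed 0 members. A difference between the batches was therefore not shown for any one member. The estimate was -0.81 ± 0.30 for Chaf1b, the farthest from 0 of the 49, and -0.66 ± 0.25 for Mcm6.

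**Figure D3:**
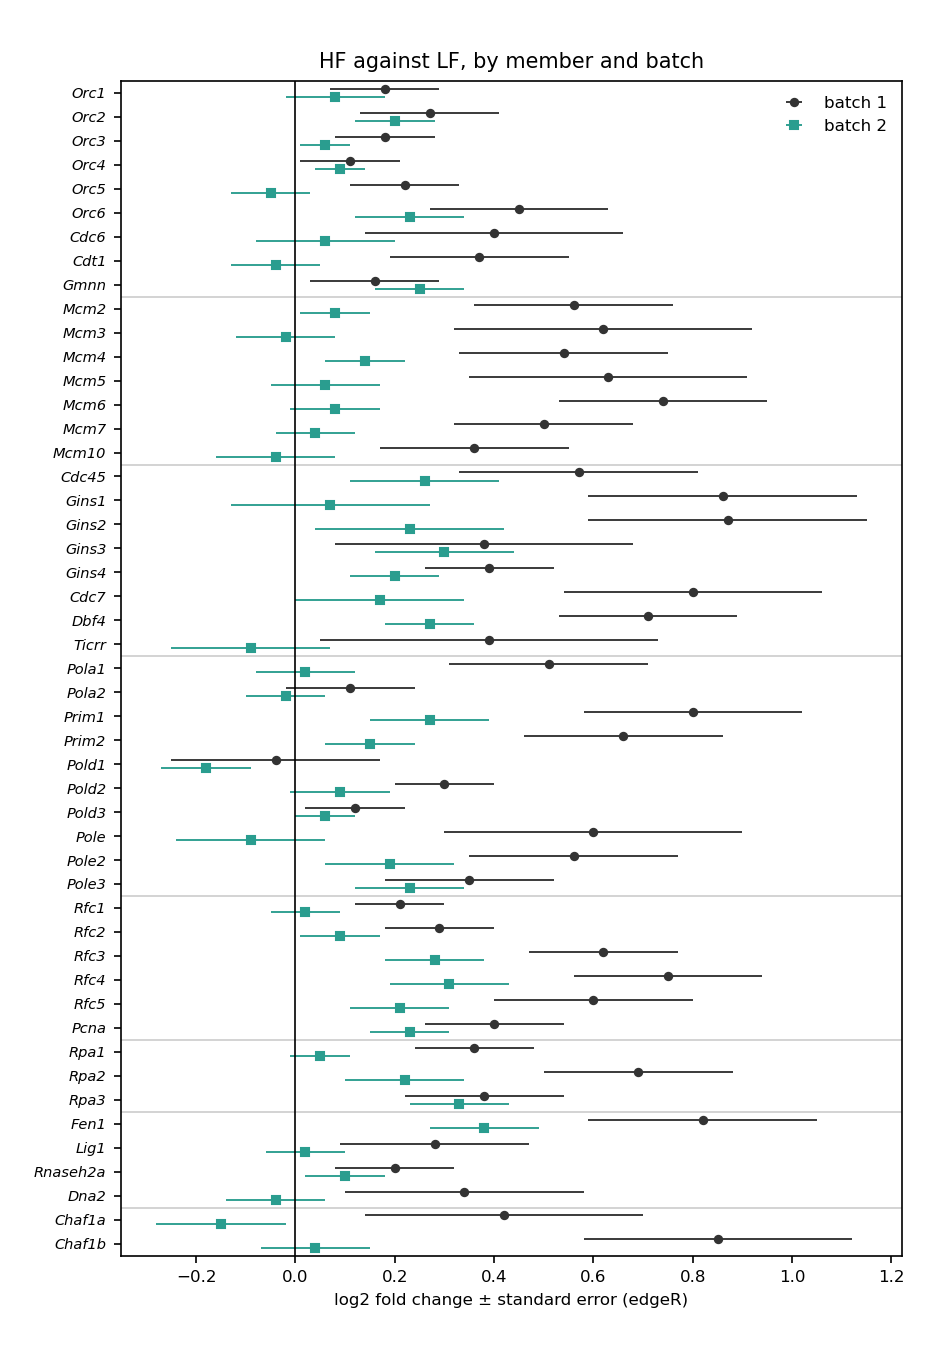
Log2 fold change of HF against LF samples for each member (points, with bars of 1 standard error from edgeR) in batch 1 (black circles) and batch 2 (green squares), ordered by role. Batch 1 lies to the right of batch 2 for 48 members, with Gins2 at 0.87 and Pold1 at -0.04 as its ends, and batch 2 runs from -0.18 for Pold1 to 0.38 for Fen1.

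After the change of diet, the members in HF-LF samples stood near those of LF samples. HF-LF against LF, the median log2 fold change was 0.00 in batch 1, -0.03 in batch 2 and -0.02 over both batches. Neither edgeR nor DESeq2 nor voom called a member in any of the 3 fits, in which edgeR called 0% of all genes in batch 1 and over both batches and 0.00696% in batch 2, a single gene that was lower. At an unadjusted p under 0.05, edgeR passed 1 member in batch 1, Dbf4, at 0.39 ± 0.16 (2.04%, against 2.5% of all genes), and 0 members in batch 2 and over both. Single HF-LF samples of batch 1 differed among themselves: the members summed to 1051, 956, 816 and 779 CPM in replicates 1 to 4, a range wider than that of the 4 LF samples. HF-LF replicate 4 had the lowest CPM of the batch for 21 members and replicate 3 for 13, and the shares of all genes are not given. In batch 2 the sums of the 5 HF-LF samples lay between 1022 and 1199 CPM and those of LF samples between 1074 and 1204 CPM. The standard errors for single members reached 0.32 in batch 1, so a remaining difference of the size seen between HF and LF in batch 2 was not detectable for many of them.

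Against HF samples the members were lower in HF-LF samples. The median log2 fold change was -0.48 in batch 1 with 48 members below 0 (50.7% of all genes), -0.18 in batch 2 with 43 below 0 (48.2% of all genes), and -0.29 over both batches with 48 below 0 (47.9% of all genes). In batch 1 edgeR called 0 members, as did DESeq2 and voom, while 28 members (57.1%) passed an unadjusted p of 0.05 with lower values, against 6.04% of all genes. The groups did not overlap, with HF-LF lower, for 10 members in batch 1 (20.4%, against 4.07% of all genes) and 9 in batch 2 (18.4%, against 12.4%). Without HF replicate 3 the median in batch 1 was -0.28, with 9 members past an unadjusted p of 0.05, and the share of all genes is not given there. In batch 2, 6 members fell (12.2%, against 5.61% of all genes): Orc2, Gmnn, Prim1, Rfc4, Rpa3 and Fen1. These 6 calls rest on few libraries, since 0 members were called without HF replicate 2, without HF replicate 3 or without HF-LF replicate 4 of batch 2, and 1 without HF-LF replicate 1, while 11 and 10 were called without HF-LF replicates 2 and 5. Over both batches 19 members fell (38.8%, against 4.9% of all genes), and 7 without HF replicate 3 of batch 1, namely Orc2, Mcm4, Prim1, Rfc3, Rfc4, Pcna and Fen1. The number was 12 without HF-LF replicate 4 of batch 1 and 12 without HF replicate 2 of batch 2. The HF and LF groups enter more than 1 of these comparisons, so the comparisons are not independent of each other.

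Fen1 fell by 0.73 ± 0.23 in batch 1 (adjusted p = 0.412), by 0.38 ± 0.10 in batch 2 (adjusted p = 0.0261) and by 0.55 ± 0.13 over both batches (adjusted p = 0.0141) on the log2 scale. Its HF-LF samples stood at 16.6, 14, 10.4 and 9.46 CPM in batch 1 and at 18.9, 19, 16.4, 15.1 and 21.5 CPM in batch 2. They thus reached into the range of the HF samples in each batch by 1 sample. Prim1 stood at 10.2, 9.09, 6.48 and 5.95 CPM in HF-LF samples of batch 1 and at 8.49, 11.4, 8.74, 10.4 and 11.5 CPM in batch 2, the last all below the HF samples, and fell by 0.57 ± 0.13 over both batches (adjusted p = 0.0138). Orc2 stood at 18.5, 17.2, 17.1 and 15.5 CPM and at 16.6, 17.4, 17.4, 15.4 and 15 CPM, against 22.6, 18.2 and 27.4 CPM and 18.8, 20.1 and 20 CPM in HF samples, and fell by 0.33 ± 0.08 (adjusted p = 0.0152). Mcm4 stood at 27.6, 24, 17.8 and 15.4 CPM in HF-LF samples of batch 1, each below the 3 HF samples, and fell by 0.48 ± 0.12 over both batches (adjusted p = 0.0157). Pcna fell by 0.35 ± 0.08 with the smallest adjusted p of the 49 members in this comparison (0.0133). Rfc3 fell by 0.38 ± 0.09 (adjusted p = 0.0154), Rfc4 by 0.47 ± 0.12 (adjusted p = 0.0161) and Rfc5, another loader subunit, by 0.44 ± 0.12 (adjusted p = 0.0201). Orc2, Mcm4, Prim1 and Fen1 were called under every alternative that was run over both batches. The mean of the HF-LF samples was nearer to the LF mean than to the HF mean for 42 of 49 members in batch 1 and for 43 in batch 2. For how many of all genes this held is not given, so these 2 counts do not set the members apart from all genes.

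**Figure D4:**
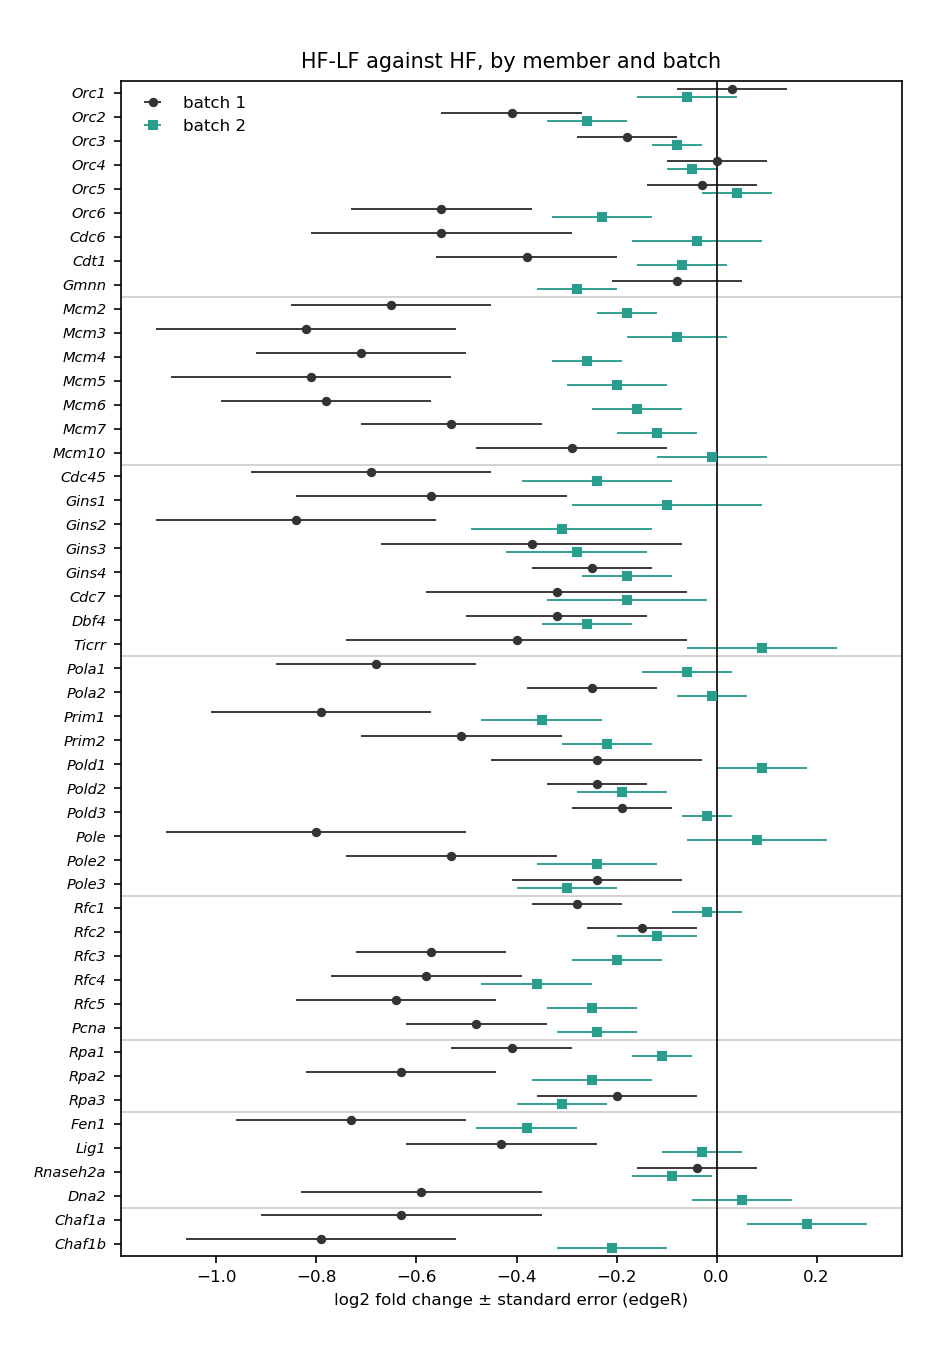
Log2 fold change of HF-LF against HF samples for each member (points, with bars of 1 standard error from edgeR) in batch 1 (black circles) and batch 2 (green squares), ordered by role. Of the 49 members, 48 lie below 0 in batch 1 and 43 in batch 2, with medians of -0.48 and -0.18.

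Neighbouring genes of the replication fork behaved like the members in part. Of 33 fork accessory genes, 10 were called higher and 1 lower between HF and LF samples over both batches, with a median of 0.18. In that fit 9% of all genes were called higher and 9.11% lower, and these shares also stand beside the E2F and G1/S genes below. Pclaf, which binds the clamp, rose by 0.86 ± 0.20 (adjusted p = 0.00611), Fam111a, a protease that binds Pcna, by 0.88 ± 0.20 (adjusted p = 0.0064) and Asf1b, a histone chaperone, by 0.70 ± 0.16 (adjusted p = 0.00631). The estimates of these 3 genes were above that of Fen1, the highest of the 49 members, and the difference was not tested. Of 23 E2F and G1/S control genes, 5 rose and 0 fell, with a median of 0.13, among them the cyclin gene Ccne2 by 0.47 ± 0.11 (adjusted p = 0.00689), which was also called in batch 2 alone, Tfdp1, a partner of E2F factors, by 0.27 ± 0.07 (adjusted p = 0.0103) and Fbxo5, an inhibitor of the anaphase-promoting complex, by 0.48 ± 0.14 (adjusted p = 0.0158).

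Genes of the later cell cycle were higher in HF samples as well. Of 19 G2/M genes, 12 were called higher over both batches, against 9% of all genes. Their median was 0.53, with 0.88 in batch 1 and 0.25 in batch 2. Cdk1, the mitotic kinase, rose by 0.70 ± 0.18 (adjusted p = 0.0102), Birc5, a subunit of the chromosomal passenger complex, by 0.65 ± 0.18 (adjusted p = 0.0118) and Hmmr, a spindle protein, by 0.67 ± 0.19 (adjusted p = 0.0143). In HF-LF against LF samples of batch 1 all 19 lay above 0 with a median of 0.60, where the median of the 49 replication genes was 0.00. Of the 19, 10 passed an unadjusted p of 0.05 with higher values, against 2.5% of all genes, and 0 were called. In batch 2 the medians of the G2/M and the replication genes were -0.02 and -0.03, and over both batches 0.27, with all 19 above 0, and -0.02. The sum of the G2/M genes was 606 CPM in LF replicate 3 of batch 1 and 290 to 326 CPM in the other LF samples of that batch, and the sum of the replication genes was 937 CPM in that sample and 848 to 1017 CPM in the others.

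Markers of cell types were read beside these values. Of 5 crypt stem cell markers, Smoc2 rose by 0.29 ± 0.09 (adjusted p = 0.0259) and Axin2 fell by 0.44 ± 0.10 (adjusted p = 0.00724) in HF against LF samples over both batches, and the list's median was 0.09. None of 5 pan-epithelial, 4 surface colonocyte, 3 tuft cell and 5 T cell and leukocyte markers was called there, nor any of the 3 of 4 macrophage markers and the 1 of 5 B cell markers that passed the filter. Of 4 goblet cell markers Spink4 rose, by 0.96 ± 0.22 (adjusted p = 0.00642), while 2 were below 0 and the list's median was 0.19 (-0.21 in batch 1, where 3 were below 0). Of 4 enteroendocrine markers Pyy rose, by 0.44 ± 0.08 (adjusted p = 0.00176). All 8 stromal and vascular markers that were tested had a negative change over both batches, with a median of -1.10, and 1 was called, Pdgfra at -1.20 ± 0.44 (adjusted p = 0.0445). Their summed level lay between 3.74 and 36.9 CPM in HF and 20 and 38.6 CPM in LF samples of batch 1, and between 9.36 and 21.7 CPM in HF and 17.7 and 62.3 CPM in LF samples of batch 2. Between HF-LF and HF samples, where the replication genes were lower, all 8 stromal and vascular markers were above 0 in each fit, with medians of 1.57 in batch 1, 0.50 in batch 2 and 1.01 over both batches, and 0 were called. The part of these cells in the changes of the replication genes was not tested.

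The size of the change followed transcript length in batch 2. Across the 49 members, Spearman's rho between the length of the longest coding transcript and the log2 fold change of HF against LF was -0.60 in batch 2 and -0.18 in batch 1, given as a description across genes, which are not independent and share their libraries. Over all tested genes with a length, 13645 in batch 2 and 13678 in batch 1, it was -0.37 and -0.21. For HF-LF against HF samples, rho with length across the members was 0.57 in batch 2 and -0.13 in batch 1, against 0.39 and 0.16 over all genes. With transcript GC content, rho for HF against LF was -0.34 in batch 2 and -0.02 in batch 1 across the members, against -0.24 and -0.36 over all genes. The 24 members with transcripts shorter than 2962 bases had a median of 0.22 in batch 2 and 0.51 in batch 1, and the 25 others 0.06 and 0.39. Per-sample trends of transcript GC content and length were removed in an alternative added after the data were seen. Between HF and LF samples it called 0 members in batch 2 and 10 over both batches. The medians were 0.06 and 0.26, and 0.41 in batch 1. At the unadjusted p threshold, 1 member was higher and 1 lower in HF samples of batch 2, against 12 and 0 before the removal. In batch 2, 39 members were above 0 before and after it. At that threshold 29 members were higher in batch 1, against 28 before, and 26 over both batches, against 33. The share of all genes past the threshold after the removal is not given. For HF-LF against HF samples that alternative called 1 member in batch 2 and 13 over both batches. Members with E2F letters in the promoter differed little in median from the 26 matched members without them, at 0.40 and 0.39 in batch 1 and 0.06 and 0.13 in batch 2.

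**Figure D5:**
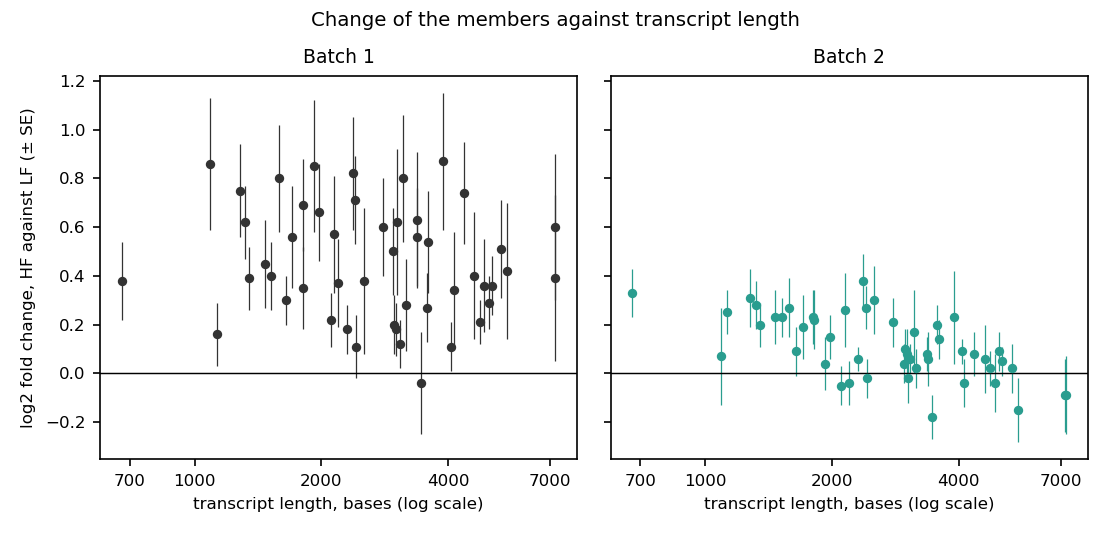
Log2 fold change of HF against LF samples of the 49 members (points, with bars of 1 standard error) against transcript length in bases on a log axis, batch 1 on the left and batch 2 on the right. In batch 2 the values tend to fall from the shortest transcript, Rpa3 with 670 bases, to the longest, Ticrr with 7199 bases, with a Spearman's rho of -0.60, and in batch 1 they show less of a slope, with -0.18.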

How the data were processed

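RNA of 23 samples was sequenced on stranded libraries after ribosomal RNA removal. The authors deposited raw read counts per gene: per the labels, reads were trimmed with cutadapt 1.2.1, aligned to mm10 with STAR 2.5 and counted with Subread featureCounts 1.5.0-p1. The strand setting and the handling of reads with several positions are not given in the sources used here, so overlapping genes and near-identical copies may share reads.

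Counts were analysed with edgeR 4.0.16 in R 4.3.3: filterByExpr by diet, TMM factors, the quasi-likelihood F test with the 3 diets in one fit, per batch and over both batches with batch as a term, and Benjamini-Hochberg adjustment over all genes tested. Calls needed an adjusted p below 0.05 plus a fold change over 1.2, as in the study, which used DESeq2. CPM were scaled within each batch, so levels are not compared across batches. A floor of 3 counts is 0.0459 to 0.103 CPM. The script was tested on simulated data. Alternatives were DESeq2 1.42.0 with and without a normal prior, voom of limma 3.58.1, other scaling, no filter, 2 groups only, a replicate block, leaving out each sample, and GC and length offsets. Over both batches, voom was also run with samples of the same diet and number taken as 1 mouse. Transcript length and GC are those of the longest GENCODE coding transcript.

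Genes were named by rule: per role up to 3 members with the smallest p over both batches, every member called within a batch, at most 8 for the HF-LF comparisons, and at most 3 per other list. The members and lists were chosen with earlier results of these data known.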

Additional observations from a re-analysis of the deposited data

Results flagged for a closer look

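In 6 of 96 sets of 4 or 5 samples of one diet and batch, 1 sample lay far from the others by Dixon's criterion, where chance gives about 1 in 20. Gins4 stood at 15.2 CPM in LF replicate 1 of batch 1, against 11.4 to 12.1 in the other LF samples. Rfc4 stood at 7.14 CPM in LF replicate 4 of batch 1, against 6.01 to 6.07, and at 9.79 CPM in HF-LF replicate 1 of batch 1, against 5.95 to 6.4. Pole2 stood at 5.88 CPM in that same HF-LF sample, against 3.91 to 4.21. In batch 2, Prim2 stood at 9.57 CPM in HF-LF replicate 5, against 7.89 to 8.26, and Rpa3 at 16.4 CPM in LF replicate 4, against 13.9 to 14.3.

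For Chaf1a, a subunit of chromatin assembly factor 1, the HF minus LF difference of means was 3.92 CPM in batch 1 and -1.36 CPM in batch 2. The interaction of batch and diet for Chaf1a was -0.57 ± 0.32 on the log2 scale (edgeR adjusted p = 0.801), so a difference between the batches was not shown.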

How the results depend on the processing

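The medians of the 49 members kept their direction in every alternative for HF against LF and for HF-LF against HF. Leaving out 1 sample gave 0.29 to 0.53 in batch 1, 0.07 to 0.14 in batch 2 and 0.21 to 0.33 over both for the first, and -0.58 to -0.28, -0.22 to -0.13 and -0.35 to -0.22 for the second, which was -0.10 in batch 2 with GC and length offsets. The medians for HF-LF against LF, near 0, changed sign, with -0.12 to 0.08 in batch 1 and -0.06 to 0.01 over both. Counts of called members moved more, and the share of all genes called under each alternative is not given. For HF against LF, DESeq2 called 9 members in batch 1 with or without the normal prior and voom 16. In batch 2 DESeq2 called 4, voom 5 and GC and length offsets 0, and over both batches voom and the offsets called 10 each. For HF-LF against HF in batch 2 the offsets called 1, and over both batches voom called 10 and a fit of 2 groups only 12. Voom with samples of the same diet and number in both batches taken as 1 mouse called 19 members for HF against LF over both batches. It called 23 for HF-LF against HF, with an estimated correlation of -0.10 between such samples. Whether such samples share a mouse stays unknown. Leaving out 1 sample gave, for HF against LF, 0 to 16 members in batch 1, 0 to 9 in batch 2 and 8 to 24 over both. For HF-LF against HF it gave 0 in batch 1, 0 to 11 in batch 2 and 7 to 25 over both, and for HF-LF against LF 0 in every fit.

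Some named members changed sign. With the offsets the HF against LF change was -0.06 for Gmnn in batch 1, -0.08, -0.02 and -0.04 for Rpa3 in batch 1, batch 2 and both, -0.02 for Chaf1b and 0.01 for Chaf1a in batch 2. Chaf1b in batch 2 was -0.02 without LF replicate 2 and -0.02 without HF replicate 2, and Chaf1a over both batches was -0.00 with voom. The cause was not tested.

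Replicate numbers were not taken to pair the samples, under a rule that every pair's deviations correlate over 0.1. That rule is strict, and failing it does not exclude a pairing. Of the pairs with the same number and batch and different diets, 10 of 20 correlated over 0.1 (median 0.09). Of the pairs with different numbers, 19 of 67 did (median -0.02). The 3 pairs of HF-LF and HF samples in batch 1 all did (0.101, 0.470 and 0.195), and there the block called 0 members, as did the fit without it. With a replicate block, HF against LF gave 0 called members in batch 1, 3 in batch 2 and 15 over both, against 0, 2 and 21 without it. HF-LF against HF gave 12 in batch 2, of which 4 were among the 6 called without it (not Orc2 and Gmnn). Over both batches it gave 12, against 19 without the block.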
